A study of Mus musculus with 10 samples.

Results

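Malat1, Neat1, Miat, Meg3, Rian, Mirg and Snhg11 are long noncoding RNAs described as retained in the nucleus, and all 7 were found by symbol among the 32531 gene rows of each of the 10 count tables. They were chosen by name because such transcripts serve as a measure of other RNA that comes along in a ribosome purification. The choice was made with earlier results of these data known, and their counts were taken from every table. The mice, adults, belonged to line DW167 (Chat-TRAP): cells that use the Chat gene carry a fusion of EGFP with the ribosomal protein Rpl10a, so the tagged ribosomes are those of cholinergic neurons. Ribosome-bound RNA of whole striatum was immunopurified with antibodies to EGFP from animals with cocaine self-administration, yoked controls and animals with saline self-administration, with 3 libraries per group, and 1 input library held the total RNA of saline self-administration animals. All groups carry the same transgene, the labels give no other allele and no exact age, and they do not say what the yoked animals received or whether a library came from 1 animal, so p values measure only the spread between these libraries. No nuclear fraction was sequenced, and the retention of these RNAs in the nucleus was therefore not measured.

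In translating ribosome affinity purification, a tag on a ribosomal protein lets the ribosomes of 1 cell type be pulled from a mixed homogenate, and the messenger RNAs they were translating are sequenced. Malat1 associates with nuclear speckles, where splicing factors gather, and Neat1 is the RNA scaffold of paraspeckles. Miat, also called Gomafu, forms nuclear domains in neurons and binds splicing factors. Meg3, Rian and Mirg are transcribed from the maternal chromosome of the imprinted Dlk1-Dio3 domain, where Rian carries small nucleolar RNAs and Mirg carries a cluster of microRNAs. Snhg11 is a small nucleolar RNA host gene used by neurons.

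Gene counts per immunopurified library were 24526800 to 75220900, and the input held 40912200, to 6 significant digits. The immunopurified libraries carried their cell type's markers: all 14 listed cholinergic genes were at least 2-fold above the input in all 3 saline libraries, as were 12.2% of the 15888 measured genes, and their median log2 ratio was 5.22. Of uniquely placed reads, 15.5% to 20.9% fell outside annotated genes with cocaine, 15.4% to 21.7% with the yoked procedure, 14.1% to 15.2% with saline and 23.6% in total RNA. Rn45s, the precursor of ribosomal RNA, took 1.40% to 3.34% of gene counts in the 3 libraries numbered 2 and 10.6% to 16.0% in the other 6 immunopurified libraries, so the libraries numbered 2 stand apart. The labels give lane 4 for the cocaine and yoked libraries, lane 3 for the saline libraries and lane 5 for the input, so lane cannot be told apart from group in the comparisons with saline and with the input.

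The 7 genes lie at 4 places in the genome, given here on GRCm38.p6. Malat1 (chr19:5795690-5802672, minus strand) and Neat1 (chr19:5824708-5845480) are neighbours with 22.0 kb between them. Meg3 (chr12:109540996-109571729), Rian (chr12:109603945-109661716) and Mirg (chr12:109734981-109749458) follow each other on the plus strand with gaps of 32.2 kb and 73.3 kb. Miat (chr5:112213228-112228948, minus strand) and Snhg11 (chr2:158375713-158386474, plus strand) stand alone. RefSeq classes all 7 as long noncoding RNA.

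The promoters of Malat1, Meg3 and Snhg11 are shown because the levels of these RNAs ran together across the immunopurified libraries. RefSeq's promoter table gave windows of 250 bases before and 50 bases after a start for 6 of the 7 genes, and the first of 2 windows is printed for Meg3. The letters searched, on both strands, were TGACGTCA (the cAMP response element), its core TGACG, which lies within it, TATAAA (the TATA box) and CCAAT (the CCAAT box). The windows run 5′ to 3′ along the gene, and capitals mark matches to TGACG and TATAAA, which also cover TGACGTCA. They lie at chr12:109540746-109541045 (plus strand, Meg3), chr19:5802623-5802922 (minus strand, Malat1) and chr2:158375463-158375762 (plus strand, Snhg11) of GRCm38.p6.
Meg3 promoter: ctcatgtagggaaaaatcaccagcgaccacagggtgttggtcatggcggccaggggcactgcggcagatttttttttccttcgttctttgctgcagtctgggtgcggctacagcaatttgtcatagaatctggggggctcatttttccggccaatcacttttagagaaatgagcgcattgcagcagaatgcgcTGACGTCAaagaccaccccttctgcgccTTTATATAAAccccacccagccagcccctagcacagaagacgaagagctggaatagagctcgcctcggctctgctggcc
Malat1 promoter: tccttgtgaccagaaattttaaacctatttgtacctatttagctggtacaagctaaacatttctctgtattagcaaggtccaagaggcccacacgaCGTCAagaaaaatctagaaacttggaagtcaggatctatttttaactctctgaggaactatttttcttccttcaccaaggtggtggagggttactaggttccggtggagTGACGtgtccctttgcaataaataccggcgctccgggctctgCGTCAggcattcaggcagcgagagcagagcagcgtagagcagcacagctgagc
Snhg11 promoter: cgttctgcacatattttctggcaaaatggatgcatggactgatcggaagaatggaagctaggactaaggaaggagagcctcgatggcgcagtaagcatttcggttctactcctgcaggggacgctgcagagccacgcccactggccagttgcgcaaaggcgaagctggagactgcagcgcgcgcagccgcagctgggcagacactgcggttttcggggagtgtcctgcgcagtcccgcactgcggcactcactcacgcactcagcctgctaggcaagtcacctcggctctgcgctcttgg
The printed Meg3 window held TGACGTCA, which begins 57 bases before the start, followed by overlapping TATAAA matches on both strands, and 1 CCAAT 100 bases before the start. The second Meg3 window, at chr12:109545148-109545447, held none of the 4. Of 32851 promoter windows of this length, 1.79% held TGACGTCA, 13.6% held TATAAA and 37.4% held CCAAT. The Malat1 window held 3 matches to TGACG, which 20.8% of windows hold, and none to the other 3. In the Snhg11 window none of the 4 was found, so no match was common to the 3 genes.

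Mirg and Rian are also precursors of microRNAs, which regulate messenger RNAs through the seed at bases 2 to 8 of the mature form. RefSeq places 19 mature microRNAs inside Mirg, 6 inside Rian and 3 inside Meg3. Examples are shown because the hosts were counted by their long transcripts while nearly all hairpin rows inside them held few counts. Capitals mark the seed, and the first pair, both from Mirg, share GGUUGCC.
mmu-miR-453: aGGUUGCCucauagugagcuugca
mmu-miR-496a-5p: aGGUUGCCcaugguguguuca
mmu-miR-370-3p: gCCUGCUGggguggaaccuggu
mmu-miR-1188-5p: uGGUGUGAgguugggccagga
The last pair comes from Rian. The 10 hairpin rows inside Mirg had at most 3 counts each in the input, and the 2 inside Meg3 had 0. The 3 inside Rian had at most 41 in the input, and Mir1188 had 55 in cocaine library 2. The values below are those of the long RNAs and say nothing of the mature microRNAs.

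All 7 RNAs were lower in ribosome-bound RNA than in total RNA in all 3 saline libraries, where 44.9% of measured genes were lower, and Malat1 was lower by the largest factor of the 7 on average. Together they made up 0.0560% to 0.119% of gene counts in the 9 immunopurified libraries, against 2.41% in the input. Every one of the 7 was at least 4-fold below the input in all 3 saline libraries, which 12.9% of the 15888 measured genes were. The members' median log2 ratio of saline immunopurified RNA to input was -3.57, against -0.20 over all measured genes. The input has no replicate, and the members and gene lists were chosen with earlier results of these data known. These ratios therefore carry no test and are a description, and the SDs given with them are over the 3 saline libraries. Fewer cells with a transcript, less of it per cell and less of it on ribosomes cannot be told apart in such a ratio.

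**Figure D1:**
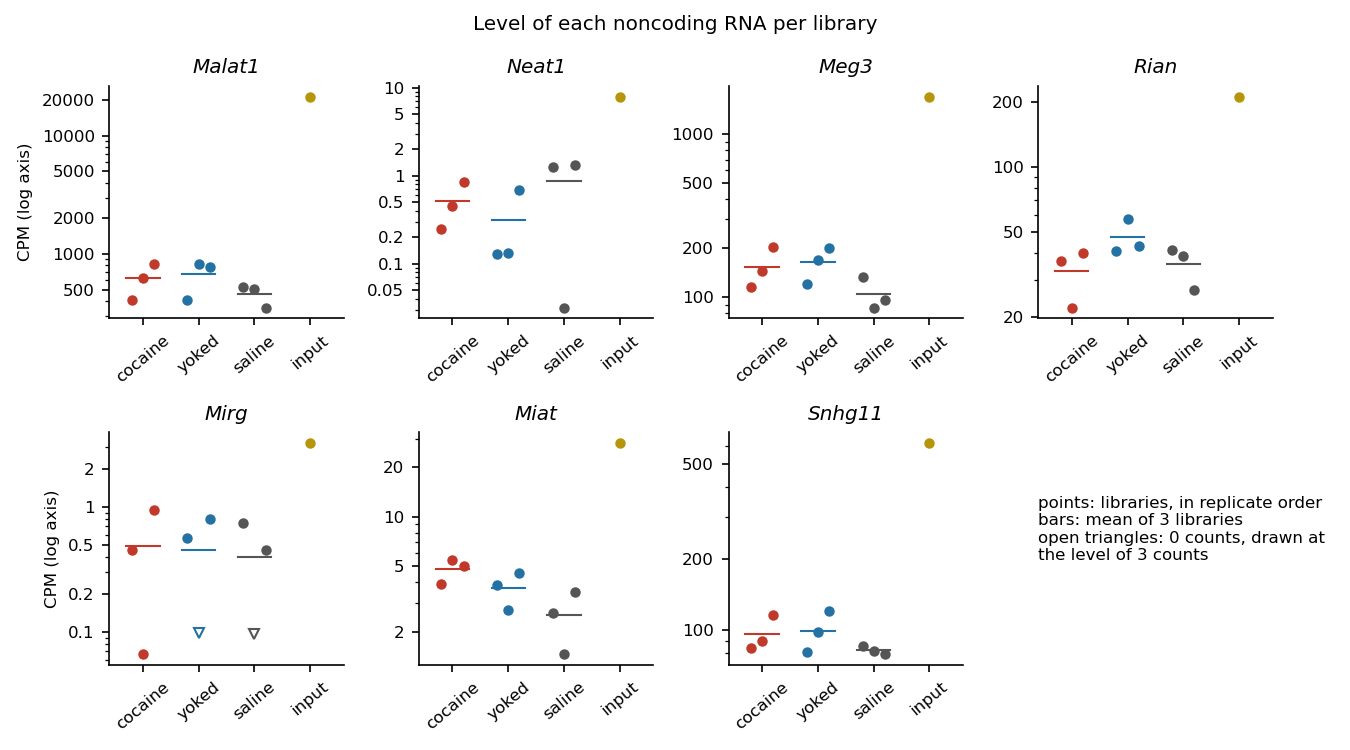
CPM (log axis) of each of the 7 RNAs in the 3 cocaine, 3 yoked, 3 saline and 1 input libraries; points are libraries, bars are means of 3 and open triangles mark 0 counts drawn at the level of 3 counts. The input point lies above all 9 immunopurified points in every panel.

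The speckle and paraspeckle RNAs come first. Levels are given as CPM, counts scaled to the library's total gene counts and not to transcript length, so they are not compared between genes. Malat1 measured 409, 630 and 821 CPM in cocaine libraries 1 to 3, 410, 825 and 780 CPM in yoked libraries, 521, 503 and 352 CPM in saline libraries, and 21553 CPM in the input. The immunopurified level was between 1.63% and 3.83% of the input level, with a median of 2.42%. Over the saline libraries the log2 ratio was -5.58 ± 0.31 (SD, n = 3), or 47.7-fold lower than the input, and 0.554% of measured genes had a lower ratio.

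Neat1 was counted thinly throughout. Cocaine libraries held 6, 34 and 25 counts, yoked libraries 7, 4 and 19, saline libraries 32, 1 and 55 and the input 323. As levels these are 0.127 to 1.31 CPM in 8 immunopurified libraries and 0.0318 CPM in saline library 2, against 7.90 CPM in the input. The mean log2 ratio of -4.40 ± 3.08 (SD, n = 3) rests on saline library 2, whose single count put it 248-fold below the input with a 95% counting interval of 44.2 to 9830. Without that library the ratio was -2.63, and saline libraries 1 and 3 were 6.32-fold and 6.04-fold below the input. Counting intervals cover counting error only, since reads without molecular identifiers are not independent molecules.

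Among the imprinted RNAs, Meg3 measured 115, 145 and 202 CPM in cocaine libraries, 121, 169 and 201 CPM in yoked libraries, 133, 86.3 and 96.3 CPM in saline libraries and 1707 CPM in the input. Rian measured 36.7, 22.2 and 39.9 CPM in cocaine libraries, 40.6, 57.6 and 43.1 CPM in yoked libraries, 41.2, 38.4 and 26.9 CPM in saline libraries and 213 CPM in the input. In saline libraries the log2 ratio was -4.05 ± 0.32 for Meg3 and -2.61 ± 0.33 for Rian (SD, n = 3 each). Their ranges did not overlap: Meg3 was 12.9-fold to 19.8-fold below the input and Rian 5.16-fold to 7.89-fold, although both come from the same chromosomal domain.

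Mirg was near the limit of detection. Its counts were 11, 5 and 28 in cocaine libraries, 31, 0 and 22 in yoked libraries, 19, 0 and 19 in saline libraries and 133 in the input. The 2 libraries at 0 were yoked 2 and saline 2, where a count of 0 allows up to 0.0988 and 0.0955 CPM, against 3.25 CPM in the input. With saline library 2 set at 3 counts, Mirg was on average at least 10.2-fold below the input, and without that library the log2 ratio was -2.49.

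The neuronal RNAs outside the domain were lower by smaller factors than Malat1. Miat measured 3.91, 5.49 and 5.05 CPM in cocaine libraries, 3.86, 2.70 and 4.55 CPM in yoked libraries, 2.62, 1.46 and 3.52 CPM in saline libraries and 28.2 CPM in the input. Snhg11 measured 84.3, 90.5 and 116 CPM in cocaine libraries, 81.0, 98.1 and 120 CPM in yoked libraries, 86.1, 81.8 and 79.6 CPM in saline libraries and 615 CPM in the input. Saline log2 ratios were -3.57 ± 0.64 for Miat and -2.90 ± 0.06 for Snhg11 (SD, n = 3 each). Snhg11 had the narrowest spread of the 7, from 12.9% to 19.6% of the input over the 9 immunopurified libraries. In order of the saline ratio, Malat1 lay clear of Meg3, whereas the library ranges of Meg3 and Miat overlapped, as did those of Snhg11 and Rian, and Neat1 and Mirg spread too widely to be placed.

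In all 6 cocaine and yoked libraries each member was again below the saline input. The smallest differences were 3.69-fold for Rian in yoked library 2 and 3.42-fold for Mirg in cocaine library 3.

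**Figure D2:**
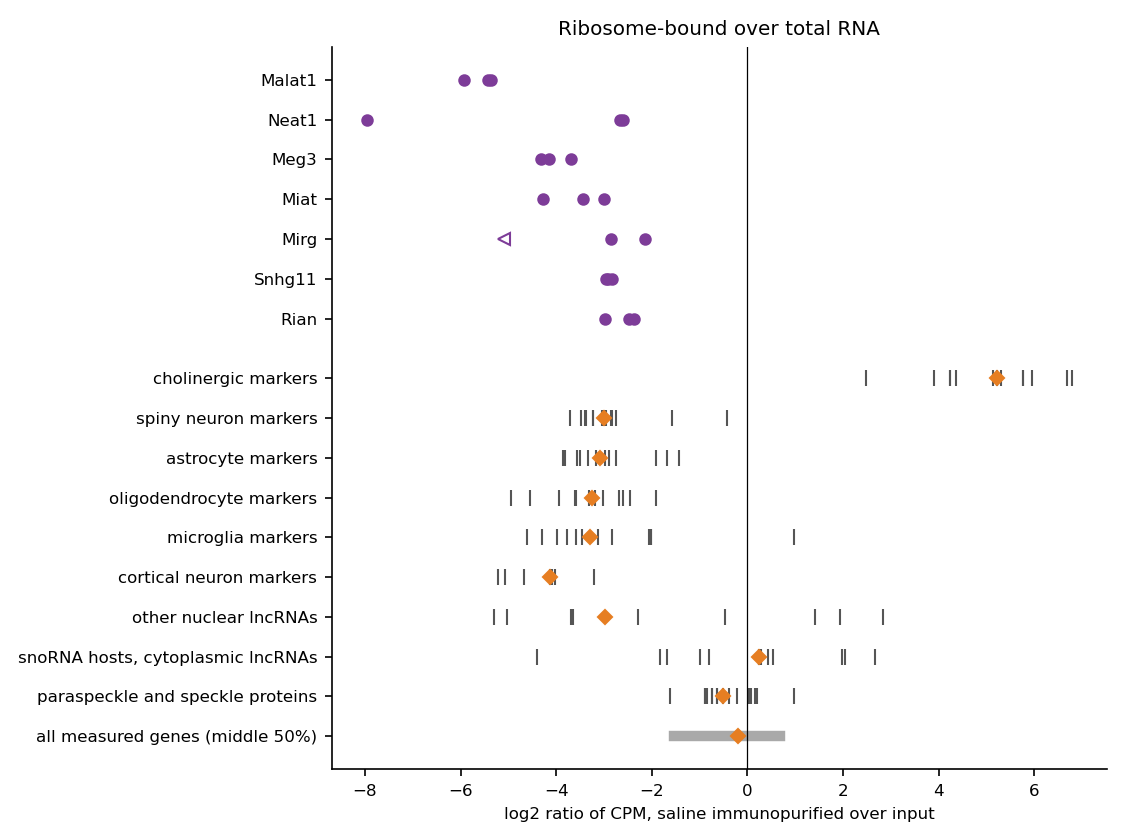
Log2 ratio of CPM in saline immunopurified libraries over the input for the 7 RNAs (points, 3 libraries each; open triangle, 0 counts drawn at 3 counts) and for the listed gene groups (ticks, mean of each gene over 3 libraries; diamonds, medians; grey bar, the middle 50% of all measured genes). The 3 Malat1 points lie below -5 and the cholinergic markers lie above 2.

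Depletion was not shared by all noncoding RNAs. Of 15 other nuclear long noncoding RNAs on a list, 10 were measured, and 7 of these were below the input in all 3 saline libraries while 3 were above it, with a median log2 ratio of -2.97 (the SD of the library medians was 0.47). Sox2ot, transcribed across the Sox2 locus, stood at -5.31 ± 2.58 (SD, n = 3), with 8 counts in saline library 2 against 143 and 240 in the other saline libraries. Rmst, a long noncoding RNA of neural tissue, held 10, 1 and 0 counts in saline libraries 1 to 3 and 128 in the input, on average at least 32.6-fold below the input with the library at 0 set to 3 counts. Dlx6os1, the antisense RNA of the interneuron gene Dlx6, stood at 2.84 ± 0.14 and Pantr1, a neighbour of Pou3f3, at 1.94 ± 0.20 (SD, n = 3 each). Peg13, an imprinted RNA within Trappc9, was the third RNA above the input, at 1.41 ± 0.13 (SD, n = 3).

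Small nucleolar RNA hosts and other noncoding RNAs that reach the cytoplasm had a median log2 ratio of 0.25 over 13 measured of 20 listed, with 5 below the input and 6 above it in all 3 saline libraries. Snhg11 lay 7.46-fold below the input while the host genes Snhg4 and Snhg3 stood at 2.68 ± 0.25 and 2.03 ± 0.35 (SD, n = 3 each). Gas5, a host whose spliced transcript is known to associate with ribosomes, stood at 0.55 ± 0.12. The host gene Snhg18 was the lowest of this list: it held 4, 0 and 0 counts in saline libraries 1 to 3 and 88 in the input, on average at least 21.1-fold below the input. Next were Snhg5 at -1.82 ± 1.12 and 1700020I14Rik at -1.69 ± 0.16 (SD, n = 3 each).

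The messenger RNAs of speckle and paraspeckle proteins had ratios nearer to 0 than those of Malat1 and Neat1. Their median log2 ratio was -0.51 over 17 of 17, of which 10 were below the input and 1 was above it in all 3 saline libraries, and none was 4-fold below. The RNA-binding protein Taf15 stood at -0.89 ± 0.42, while Nudt21, a cleavage factor subunit, stood at 0.98 ± 0.22 and the paraspeckle protein Nono at 0.21 ± 0.29 (SD, n = 3 each). Coding genes beside the members varied more: Rtl1, an imprinted gene whose RefSeq span overlaps Meg3 and Rian, stood at -5.38 ± 0.13 and the imprinted growth regulator Dlk1 at -4.26 ± 1.34, while Wdr25 stood at 1.29 ± 0.45 (SD, n = 3 each). The median was -2.03 over 10 measured of 11. Rmrp, the only measured gene of 8 listed structural RNAs, held 6, 7 and 0 counts in saline libraries 1 to 3 and 121 in the input, on average at least 19.1-fold below the input with the library at 0 set to 3 counts.

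Lists of markers of other striatal cell types also had medians below the input. The median log2 ratios were -3.00 for spiny projection neurons (15 measured), -3.08 for astrocytes (12), -3.25 for oligodendrocytes (12), -3.29 for microglia (12), -2.78 for other interneurons (8), -3.42 for endothelial and mural cells (8) and -4.12 for cortical glutamatergic neurons (7). The saline ratio of Rian lay above all 7 of these medians, and that of Snhg11 above all but the interneuron median. The ratios of Miat and Meg3 lay below all but the cortical neuron median. The mean ratio of Malat1 lay below that of every measured marker of these 7 lists, although the lowest, the interneuron neuropeptide gene Npy at -5.53 ± 2.41 (SD, n = 3), did not differ from it beyond the spread of the libraries. The summed spiny neuron markers kept 14.4% to 21.9% of their input level in cocaine libraries, 16.3% to 20.5% in yoked libraries and 13.1% to 23.3% in saline libraries. The summed oligodendrocyte markers kept 10.5% to 18.8%, 10.8% to 16.9% and 8.05% to 17.6% in the cocaine, yoked and saline libraries, and the summed astrocyte markers 13.1% to 20.5%, 15.6% to 17.3% and at most 19.1%. Lower still, the summed cortical neuron markers kept 4.83% to 8.86%, 2.07% to 7.10% and 4.48% to 7.06%. In yoked library 3 their 2.07% lay below the 3.62% of Malat1, and in the other immunopurified libraries they lay above Malat1. No marker of spiny neurons, astrocytes or oligodendrocytes was at 0 in any immunopurified library, while the microglia genes C1qa, C1qc, P2ry12 and Trem2 were at 0 in at least 1.

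Malat1, Rian and Snhg11 did not keep the proportions to Meg3 that they had in the input. Per 100 counts of Meg3, Malat1 had 339 to 583 counts in the 9 immunopurified libraries, against 1262 in the input (95% counting interval 1253 to 1272). Rian had 15.4 to 44.5 counts per 100 of Meg3, against 12.5 in the input (12.2 to 12.7), and was above the input ratio in 9 of 9 libraries. Snhg11 had 57.3 to 94.8 counts per 100 of Meg3, against 36.0 in the input. Per 100 of Malat1, it had 11.9 to 22.6 counts in immunopurified libraries, against 2.85 in the input, again above it in 9 of 9. For other pairs the input lay within the immunopurified range. Miat had 1.59 to 3.79 counts per 100 of Meg3, against 1.65 in the input. Mirg had 0 to 0.559 per 100 of Meg3, against 0.190, and Neat1 0.00632 to 0.371 per 100 of Malat1, against 0.0366.

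The mixture also differed between treatment libraries. Rian per 100 Meg3 was 32.0, 15.4 and 19.7 in cocaine libraries, 33.6, 34.0 and 21.4 in yoked libraries and 31.0, 44.5 and 28.0 in saline libraries. Cocaine libraries 2 and 3 and yoked library 3 were the low ones, and the groups overlapped. Mirg per 100 Rian spread from 0 to 2.38 on both sides of the input's 1.53, with the 2 libraries at 0 counts the lowest.

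**Figure D3:**
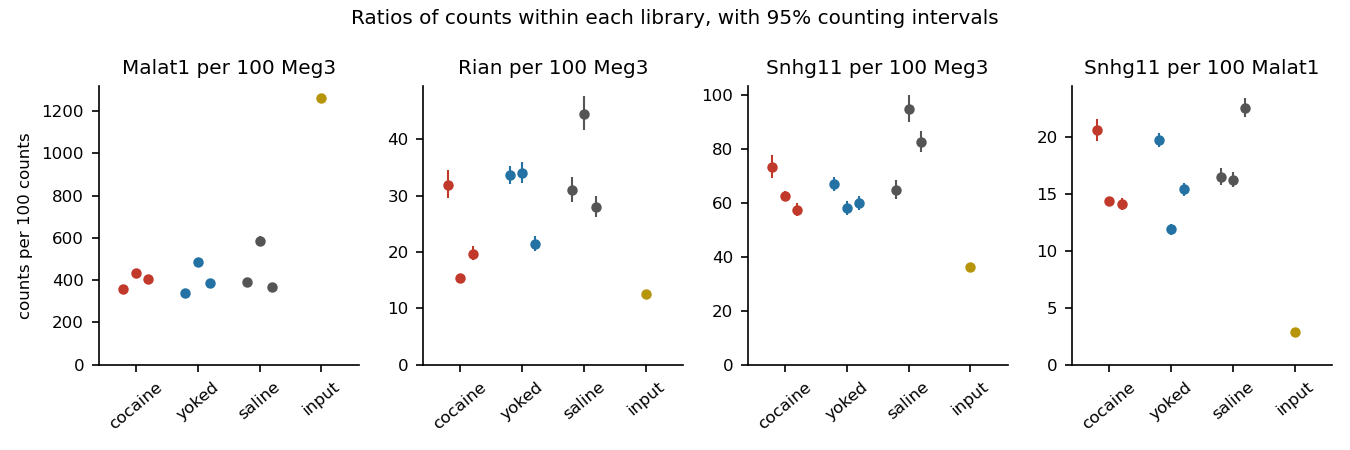
Counts of a transcript per 100 counts of another in the same library, for the 3 cocaine, 3 yoked, 3 saline and 1 input libraries; points are libraries and lines are 95% counting intervals. In all 4 panels the input lies outside the range of the 9 immunopurified libraries, above it for Malat1 per 100 Meg3 and below it for the other ratios. The computed pairs with Miat, Mirg or Neat1, for which the input lies within that range, are not plotted.

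Among the small RNA rows inside the hosts, DQ267101 had by far the most counts. DQ267101, a small nucleolar RNA row within Rian (chr12:109651424-109651495), had 4167 counts in the input, or 47.9% of Rian's 8697, and 506 to 1176 in the immunopurified libraries. Its saline log2 ratio was -2.58 ± 0.23 (SD, n = 3), close to that of its host, and adding its reads to Rian gave -2.59 ± 0.29. The strand setting of the counting is not given in the sources used here, so reads from overlapping rows such as Rtl1 and Meg3 cannot be assigned to a strand.

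Cocaine self-administration was compared with saline self-administration and with yoked controls, which in self-administration work separate the act of taking the drug from other parts of the procedure. In edgeR's quasi-likelihood fit of all 14989 tested genes none of the 7 RNAs passed an adjusted p of 0.05 in any comparison, and neither did any other gene (0% called each time). An unadjusted p under 0.05 was reached by 5.28% of genes in the test of cocaine against saline, by 2.61% in that of cocaine against yoked and by 2.18% in that of yoked against saline. DESeq2 likewise called 0 genes in each. All 7 RNAs passed the filter on low counts, Neat1 and Mirg with means under 1 CPM in every treatment group. Changes are fitted log2 fold changes ± standard error.

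For cocaine against saline, 5 of the 7 fitted changes were above 0 and 2 were below, while 50.6% of all genes tested were above 0. The members' median was 0.26, against 0.0049 over all genes tested. Miat averaged 4.82 ± 0.81 CPM in cocaine libraries and 2.53 ± 1.03 CPM in saline libraries (SD, n = 3 each). All 3 cocaine libraries lay above all 3 saline libraries, a pattern that 4.88% of tested genes showed in this direction. Its log2 fold change was 0.94 ± 0.47, with a 95% interval of -0.07 to 1.95 and an edgeR adjusted p of 0.850, and 0.53 without the libraries numbered 2. Meg3 averaged 154 ± 44.5 CPM in cocaine libraries and 105 ± 24.5 CPM in saline libraries (SD, n = 3 each), and the groups overlapped. Its log2 fold change was 0.56 ± 0.24, with an interval of 0.06 to 1.07, an unadjusted edgeR p of 0.0310 and an adjusted p of 0.850. That interval took in 0 without cocaine library 3, where the change was 0.35, without saline library 2 (0.43), without saline library 3 (0.52) and without the 3 libraries numbered 2 (0.46). Malat1 averaged 620 ± 207 CPM in cocaine libraries and 459 ± 93.2 CPM in saline libraries, a change of 0.45 ± 0.27 with an edgeR adjusted p of 0.850, which was 0.23 without cocaine library 3 and 0.68 without cocaine library 1. The intervals of the other 4 all included 0, from -0.14 to 0.63 for Snhg11 and -0.59 to 0.40 for Rian to more than 5 units wide for Neat1 and Mirg, so changes of several fold in those last RNAs were not detectable at their counts.

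For cocaine against yoked, 3 fitted changes were above 0 and 4 below, while 50.2% of all genes tested were above 0. The members' median was -0.01, against 0.00 over all genes tested. Rian averaged 32.9 ± 9.40 CPM in cocaine libraries and 47.1 ± 9.21 CPM in yoked libraries (SD, n = 3 each). All 3 cocaine libraries lay below all 3 yoked libraries, which 3.37% of tested genes did. The log2 fold change was -0.49 ± 0.23, with an interval of -0.98 to 0.01 and an edgeR adjusted p of 0.9997, and it was -0.28 without cocaine library 2 and -0.15 without all 3 libraries numbered 2. Malat1, Meg3 and Snhg11 differed by -0.08 ± 0.27, -0.06 ± 0.23 and -0.01 ± 0.18, with intervals reaching 0.65, 0.56 and 0.39 below 0 and 0.50, 0.45 and 0.37 above it.

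For yoked against saline, where the groups were run in different lanes, 6 fitted changes were above 0 and 1 was below. Of all genes tested, 47.9% were above 0. The members' median was 0.39, against -0.01 over all genes tested. Changes of Malat1, Meg3 and Snhg11 are not independent, because their levels ran together across libraries. Meg3 averaged 164 ± 40.4 CPM in yoked libraries and 105 ± 24.5 CPM in saline libraries (SD, n = 3 each). Its log2 fold change of 0.62 ± 0.24 had an interval of 0.11 to 1.13, an unadjusted edgeR p of 0.0197 and an adjusted p of 0.999. The interval took in 0 without yoked library 3 (0.43), saline library 2 (0.49) or saline library 3 (0.58), and without the 3 libraries numbered 2 (0.51). Malat1 averaged 672 ± 228 CPM in yoked libraries and 459 ± 93.2 CPM in saline libraries, a change of 0.53 ± 0.27 with an adjusted p of 0.999 in edgeR. The yoked and saline libraries overlapped for all 7 RNAs, whereas 7.05% of tested genes had groups that did not overlap. Both comparisons with saline use the same 3 saline libraries.

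**Figure D4:**
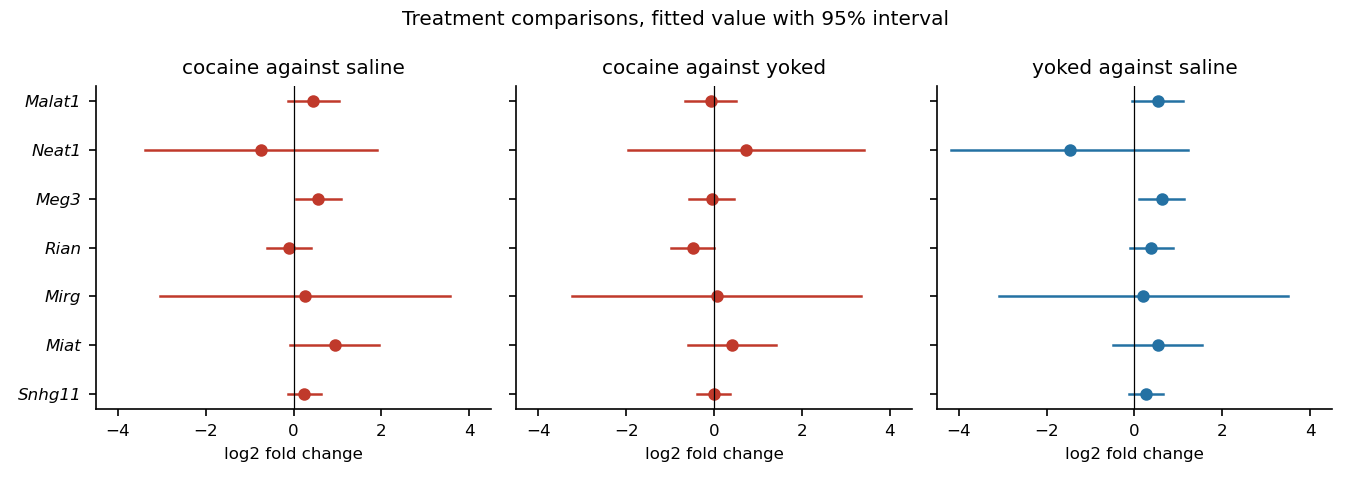
Fitted log2 fold change (points) and 95% interval (lines) of each RNA for cocaine against saline, cocaine against yoked and yoked against saline, from the fit over all 9 immunopurified libraries. Meg3's interval lies above 0 in both comparisons with saline, and the widest intervals are those of Neat1 and Mirg.

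Other listed genes gave no call either, in any of the 3 comparisons. For cocaine against saline the 11 tested other nuclear RNAs had a median log2 fold change of 0.12, the 12 tested small nucleolar RNA hosts and cytoplasmic RNAs -0.14 and the 17 speckle and paraspeckle proteins -0.12. For yoked against saline the medians were 0.37, -0.06 and -0.03, and for cocaine against yoked they were 0.01, -0.12 and -0.06. Markers of other cells had fitted changes too. For yoked against saline 14 of 15 spiny neuron genes and 11 of 12 oligodendrocyte genes had fitted changes above 0, with medians of 0.18 and 0.44. Other lists differed: 5 of 12 astrocyte genes (median -0.08), 5 of 10 microglia genes (0.32) and 1 of 6 cortical neuron genes (-0.12) were above 0. So were 5 of 8 interneuron genes (median 0.71), 4 of 5 endothelial and mural genes (0.82) and 47.9% of all genes tested. For cocaine against saline the spiny neuron and oligodendrocyte counts were 12 of 15 and 9 of 12, with medians of 0.07 and 0.33. Astrocyte genes were above 0 in 9 of 12, microglia in 5 of 10 and cortical neuron genes in 4 of 6, against 50.6% of all genes tested. Interneuron genes were above 0 in 6 of 8 and endothelial and mural genes in 4 of 5, with medians of 0.50 each. For cocaine against yoked, 4 of 15 spiny neuron, 8 of 12 oligodendrocyte, 7 of 12 astrocyte and 3 of 10 microglia genes were above 0. So were 5 of 6 cortical neuron, 3 of 8 interneuron and 1 of 5 endothelial and mural genes, against 50.2% of all genes tested. The part of these markers in the members' values was not tested.

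Across the 9 immunopurified libraries, Malat1, Meg3 and Snhg11 were high and low together. Pearson's r of log2 CPM was 0.92 for Meg3 and Snhg11 (Spearman's rho 0.90), 0.87 for Malat1 and Snhg11 (rho 0.88) and 0.86 for Malat1 and Meg3 (rho 0.85). Exact two-sided permutation tests gave p of 0.000130, 0.000959 and 0.00480, and 0.00272, 0.0101 and 0.0336 after Benjamini-Hochberg adjustment over all 21 pairs, and for rho p of 0.00203, 0.00308 and 0.00607 (adjusted 0.0323, 0.0323 and 0.0425). Without the 2 libraries farthest from the median r was 0.94, 0.86 and 0.78, and within the 6 libraries of lane 4 it was 0.97, 0.85 and 0.94. Without the 3 libraries numbered 2 it was 0.97, 0.97 and 0.99, with exact permutation p adjusted over the 21 pairs of 0.0350, 0.0350 and 0.0292. Each pair shares its library's depth and composition. The permutations treated all libraries as exchangeable, whatever their treatment group, lane or replicate number, so these p values may be too small. AK079811, an RNA outside the 7, reached r of 0.95 with both Malat1 and Meg3. The share of all gene pairs with such r was not computed. Over all 9 libraries the other 18 pairs had r between -0.37 and 0.71 and adjusted p of 0.171 or more. Without the 3 libraries numbered 2, Mirg also passed with Malat1 (r of 0.94) and with Meg3 (0.91), with an exact permutation p adjusted over the 21 pairs of 0.0350 each, against r of -0.19 and 0.28 over all 9 libraries.

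The 3 libraries with the highest Malat1 level, yoked 2, cocaine 3 and yoked 3, were also the 3 with the highest share of reads outside genes, 17.6%, 20.9% and 21.7%, a match noticed after the values were seen. The part of such reads in the members' levels was not tested.

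Levels of foreign cell markers were set beside each RNA, using the mean log2 CPM of 49 measured markers of spiny neurons, astrocytes, oligodendrocytes and microglia. Pearson's r over the 9 libraries ran from -0.07 for Malat1 to 0.82 for Mirg. For Mirg the exact permutation p was 0.00772, or 0.0540 adjusted over the 7 RNAs, with a rho of 0.70 (p of 0.0433, adjusted 0.303). Without the 2 libraries farthest from the median, cocaine 2 and saline 2, r was 0.72, and within lane 4 it was 0.85. Without the 3 libraries numbered 2, r for Mirg was 0.39 (exact permutation p of 0.770, adjusted). For the other 6 RNAs r lay between -0.07 and 0.39 with adjusted p of 0.600 or more, and their rho between -0.20 and 0.38. Without the libraries numbered 2, r for Rian was 0.88 (exact permutation p of 0.564, adjusted over the 7 RNAs), against 0.37 over all 9 libraries.

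**Figure D5:**
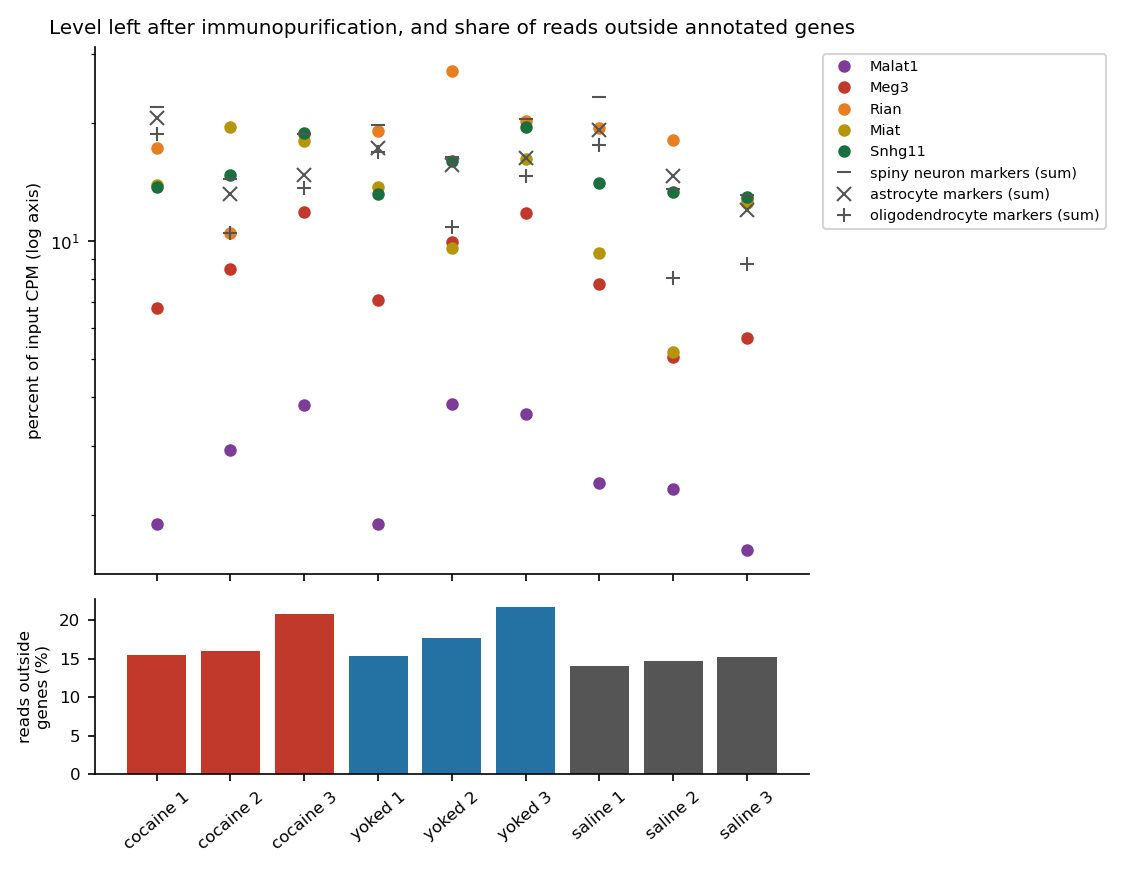
Upper panel, percent of the input CPM (log axis) kept in each of the 9 immunopurified libraries by 5 of the RNAs and by summed markers of spiny neurons, astrocytes and oligodendrocytes. Lower panel, reads outside annotated genes as a percent of uniquely placed reads. Malat1 stays between 1.63% and 3.83%, below the summed markers plotted, and is highest in the 3 libraries with the tallest bars. Cortical neuron markers, lower than these, are not plotted.

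The genes whose levels ran most like each RNA were taken from 10247 tested genes with a mean of at least 5 CPM, by Pearson's r of log2 CPM over the 9 libraries, and are given as a description. Malat1 ran closest to AK079811 (r of 0.95), the cadherin gene Fat3 (0.91) and the Hsp90 cochaperone gene Cdc37 (0.91). AK079811 was also among the closest to Meg3 (0.95), with Rsrp1 (0.95), which encodes an arginine- and serine-rich protein, and the Polycomb cofactor gene Jarid2 (0.92). Rian ran with Dido1 (0.97), Mmd2 (0.97) and Trappc9 (0.95), Miat with Wiz, Pex10 and Zfp653 (0.94 each), and Snhg11 with the DNA demethylase gene Tet2 (0.95), Tnrc6c (0.94) and Tnrc18 (0.94). Neat1 ran with Gemin7 (0.92), Wdr43 (0.89) and Nes (0.88). Mirg ran closest to Rn45s (0.98), then Tekt2 (0.95) and Plk4 (0.95). For all correlations 0.5 counts were added to every count, so yoked library 2 and saline library 2 entered Mirg's values at 0.5 counts. Its 3 lowest libraries, at 5, 0 and 0 counts, were the 3 numbered 2, in which Rn45s took 3.34%, 1.40% and 2.02% of gene counts in the cocaine, yoked and saline library.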

How the data were processed

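The values deposited by the authors are raw counts of reads for each gene symbol, with a separate table for every library. Per the submitters' processing notes, STAR 2.0.0e and HTSeq were used with the mouse build mm10, while HTSeq's version, the gene annotation and strand setting are not given in the sources used here. Rows of unassigned reads (47.6% to 67.4% of all reads) were left out of library sizes.

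Levels are CPM over all gene counts of a library. Each saline immunopurified library was divided by the single input as a log2 ratio of CPM, for genes with at least 20 counts in the input or the mean immunopurified library, with a library at 0 set to 3 counts as its upper limit. Counting intervals are exact at the 95% level. Treatment groups were compared with edgeR 4.0.16 in R 4.3.3 (robust quasi-likelihood F-test, trimmed mean of M-values scaling, filter on low counts, 9 libraries in 1 fit, Benjamini-Hochberg adjustment over 14989 genes, threshold 0.05), checked on simulated counts, with DESeq2 1.42.0 as an alternative. Correlations used exact permutation of pairings (SciPy 1.17.1), without regard to treatment group, lane or replicate number. For correlations, log2 CPM was taken after adding 0.5 counts to every count. Sequences and coordinates are from RefSeq, GRCm38.p6, the same build as mm10.

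The members and the gene lists were chosen with earlier results of these data known. All 7 members are named, with the 3 genes most like each, and up to 4 genes of a list, the 2 highest and 2 lowest ratios to the input, apart from some that are not reported here; Peg13, Gas5, Snhg18, the rows inside the hosts and the markers at 0 were named outside that rule after their values were seen. Alternatives covered scaling, the filter, each replicate left out, the libraries numbered 2 left out, and a replicate block. Adding the small nucleolar RNA reads to Rian, leaving Rn45s out of library sizes and recomputing member pairs without the libraries numbered 2 were chosen after seeing the data.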

Additional observations from a re-analysis of the deposited data

How the results depend on the processing

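None of the 7 RNAs was called in any comparison under any of the 14 alternatives to the treatment fit, and all 7 stayed at least 4-fold below the input under each alternative tried there. Without a filter on low counts, cocaine against saline gave 60 called genes, cocaine against yoked 27 and yoked against saline 18, against 0 each with it, over a larger set of tested genes. Fitted changes near 0 turned sign: cocaine against saline, Rian was 0.16 without the 3 libraries numbered 2, and cocaine against yoked, Malat1 was 0.0199 without them and Snhg11 0.0010 without the filter. Leaving out each replicate in turn moved cocaine against saline between -0.25 and 0.11 for Rian and -0.66 and 1.02 for Mirg. It moved cocaine against yoked between -0.32 and 0.16 for Malat1, -0.27 and 0.14 for Meg3, -0.86 and 0.71 for Mirg and -0.13 and 0.16 for Snhg11, and yoked against saline between -0.44 and 0.96 for Mirg. Correlations with foreign markers changed sign without the libraries numbered 2 for Malat1 (r of 0.37), Neat1 (-0.32) and Miat (-0.12), and with spiny neuron markers alone for Malat1 (0.0508). For Mirg r was 0.84 with trimmed mean scaling (adjusted p of 0.0303, exact permutation) and 0.84 with glial markers alone (adjusted p of 0.0423), but 0.39 without the libraries numbered 2, where Rian's was 0.88. The cause was not tested. Without the libraries numbered 2 the 3 called pairs of members stayed called, and Mirg with Malat1 and Mirg with Meg3 passed as well.

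Same-numbered libraries of different groups deviated together with correlations of 0.048 to 0.286 over 9 pairs, against -0.195 to 0.087 for different numbers, and in 16 of 18 checks a library correlated best with its own number in another group, a hint from the data and not the design. Deviations were taken from each group's mean, so the correlations for same and different numbers are not independent of each other. Median correlations were 0.196 for same numbers and -0.081 for different numbers. Whether same-numbered libraries shared a batch was not tested. The labels do not say what the numbers stand for. Not every same-numbered pair passed 0.1, an arbitrary level, and the numbers were not taken as pairing. The main fit and the permutation tests left them out. With a replicate block 0 genes were called in each comparison, no member changed direction, and Meg3 was 0.53 for cocaine against saline.

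Depth limits Neat1 and Mirg, with 0 to 55 counts per immunopurified library. The single input limits every ratio to it.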
